A study of Mus musculus with 4 samples.

Results

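Natural killer (NK) cells without granzyme C were 1892 of 32396 filtered cells in droplet single-cell RNA libraries of CD45-positive cells from subcutaneous MC38 tumours. They were chosen on raw unique molecular identifiers (UMIs, each standing for 1 captured transcript). A cell needed at least 300 genes, at most 15% mitochondrial UMIs, at least 2 UMIs of the NK receptor genes Ncr1 and Klrb1c together, no UMI of Cd3e, Cd3d, Csf1r, Cd79a or Gzmc, and fewer than 10 UMIs of C1qa, C1qb and C1qc together. By this rule WT replicate 1 held 604 of them, WT replicate 2 held 253, cKO replicate 1 held 635 and cKO replicate 2 held 400. Values are given in that order throughout. The values of these gate genes chose the cells and are not results.

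MC38 is a mouse colon adenocarcinoma line. Tumours grew for 16 days in otherwise untreated mice that were 8 weeks old at injection, and cells were frozen and thawed before library preparation. There were 2 WT libraries and 2 libraries labelled cKO for Ufl1, the gene of the ligase that attaches the ubiquitin-like protein UFM1 to other proteins. By its title, the series concerns loss of Ufl1 in T cells. The labels name no Cre line and no deleted exons, and do not say whether NK cells lost the gene. They also leave unsaid which animals, or pools of animals, stand behind a library. P-values thus measure the spread between these libraries alone, which may be technical.

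NK cells are innate lymphocytes that kill by releasing perforin and granzymes. In mice, receptors of the Ly49 family, encoded by the Klra genes, bind MHC class I or related ligands. Most of them inhibit the NK cell, while Ly49D (Klra4) and Ly49H (Klra8) activate it through the adaptor DAP12 (Tyrobp). Eomes is a T-box transcription factor of conventional NK cells, and CD49a (Itga1) marks tissue-resident and type 1 innate lymphoid cells. Interferons, made by infected or activated cells, induce a large shared set of antiviral genes.

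The 5 marker genes given for these cells were all present. They lie, in GRCm38, at chr13:113093825-113100981 (Gzma), chr6:130043731-130067271 (Klra4), chr6:130115226-130129898 (Klra8), chr9:118478212-118486132 (Eomes) and chr6:128778485-128789215 (Klrb1c, a gate gene). Promoters are shown for the gene that marks nearly every member and for a pair of interferon response genes. Each sequence is the 160 bases just before the transcription start, written on the gene's strand (RefSeq, GRCm38.p6). Capitals mark matches, on either strand, to the RUNX motif TGTGGTT in Gzma and to the interferon-stimulated response element (GAAA, any 2 bases, GAAA) in Isg15 and Ifit3, where neighbouring matches overlap in Isg15.
Gzma, chr13:113100982-113101141, minus strand: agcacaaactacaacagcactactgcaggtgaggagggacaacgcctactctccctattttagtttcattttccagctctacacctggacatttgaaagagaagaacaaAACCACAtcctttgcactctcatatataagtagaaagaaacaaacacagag
Isg15, chr4:156200819-156200978, minus strand: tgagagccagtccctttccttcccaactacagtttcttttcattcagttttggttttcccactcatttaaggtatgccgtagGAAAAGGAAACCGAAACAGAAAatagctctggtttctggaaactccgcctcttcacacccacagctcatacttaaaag
Ifit3, chr19:34583369-34583528, plus strand: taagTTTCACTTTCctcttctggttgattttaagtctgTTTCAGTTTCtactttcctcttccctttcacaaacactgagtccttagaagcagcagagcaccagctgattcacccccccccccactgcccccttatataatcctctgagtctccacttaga

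In the 250 bases before the start, the interferon-stimulated element was matched in 3.46% of 27025 genes. It was matched in 16 of the 28 type I interferon response genes that had a promoter entry, of 37 listed. Among granzyme and killing genes it was matched in 4 of 18, and among Ly49 genes in 0 of 11. The Gzma sequence above also holds a match to it on the opposite strand, left in lower case. The RUNX motif was matched in 5.08% of all genes and in 8 of 18 granzyme and killing genes. These matches describe letters only.

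Before the results, the libraries differed in ways that touch them. WT replicate 1 and cKO replicate 2 shared 479 cell barcodes, against 85 to 104 for the other pairs, and 63 members carried a barcode found in another library. Just 1 barcode was a member in both. In the members, cKO replicate 2 had 311 CPM of Xist and no UMI of the Y-linked Ddx3y, while the other libraries had no Xist UMI and 53.3 to 63.3 CPM of Ddx3y, so 1 cKO library stands apart from the rest in X- and Y-linked genes. Results are given with all cells, and without shared barcodes where that changed them. Members held 1726114 to 4314150 UMIs per library, with medians of 4798 to 5931 UMIs per cell.

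Gzmc UMIs were also found in cells that should lack the gene, at shares that differed between libraries. In cells with at least 3 Csf1r UMIs and no NK or T receptor UMI (median 9594 to 11897 UMIs), 28.1%, 11%, 16.4% and 8.86% carried a Gzmc UMI. In cells with at least 3 Cd79a UMIs (median 2988 to 3962) it was 28.9%, 11.1%, 19.1% and 6.06%. The rule therefore also sets aside NK cells whose few Gzmc UMIs lie within this background. Just outside the rule were 240, 49, 152 and 50 NK cells with 1 Gzmc UMI, and 122, 37, 87 and 64 cells with 1 NK receptor UMI. Just inside were 103, 27, 75 and 56 cells with exactly 2 receptor UMIs. At the C1q limit, 1, 1, 2 and 1 members had 9 UMIs, and 1 cell in all had 10.

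Members made up 8.31%, 2.70%, 8.17% and 5.00% of filtered cells. The WT and cKO libraries overlapped, with means of 6.58% ± 2.24 (SD, n = 2) in cKO and 5.51% ± 3.97 (SD, n = 2) in WT (two-sided exact permutation p = 1). A design of 2 against 2 cannot give a p below 0.333. Among NK cells by the gate, 47.7%, 49.9%, 57.3% and 67.7% lacked a Gzmc UMI. When each cell was thinned to 3000 UMIs, so that depth was equal, the share was 56.5%, 58.8%, 65.5% and 71.7%. Both cKO libraries lay above both WT libraries, by 10.9 percentage points on average (exact permutation p = 0.333, the smallest this design allows). Once NK cells with up to 2 Gzmc UMIs were also counted as without it, the unthinned shares were 73.1%, 62.7%, 75.5% and 79.0%, and the share in WT replicate 1 lay just below that in cKO replicate 1. At 3000 UMIs per cell the same definition gave 74.5%, 68.2%, 78.8% and 81.6%, a difference of 8.84 points (exact permutation p = 0.333). The share of Csf1r-high cells with a Gzmc UMI was highest in WT replicate 1 and lowest in cKO replicate 2, while cKO replicate 1 exceeded WT replicate 2. Its part in the difference was not tested.

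**Figure D1:**
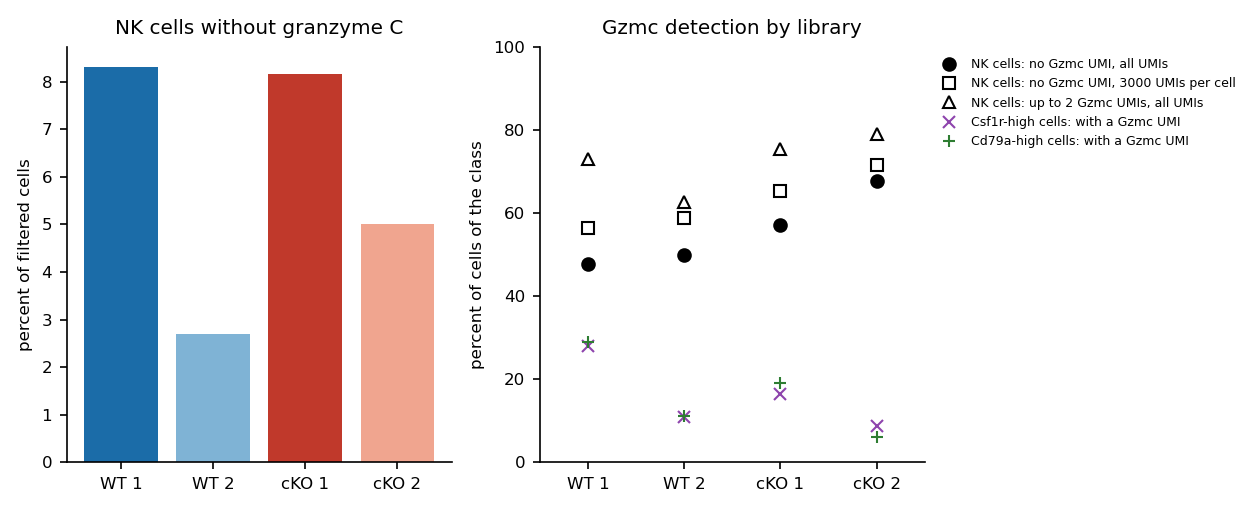
Left, members as a percent of filtered cells in each library. Right, percent of NK cells counted as without Gzmc under 3 definitions, with the percent of Csf1r-high and Cd79a-high cells that carry a Gzmc UMI. The NK shares without a UMI are higher in the cKO libraries, and the background is highest in WT replicate 1, at 28.1% and 28.9%.

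Nearly all members carried granzyme A, and they shared the Ly49 repertoire broadly. At 3000 UMIs per cell, Gzma, a granule protease, was detected in 96.0%, 90.7%, 94.5% and 96.3% of members. In the same Csf1r-high cells it was detected in 1.39% to 3.57%. Eomes was detected in 51.1%, 55.3%, 54.9% and 54.6% of members, against at most 0.362% of Csf1r-high cells. The libraries agree closely for these genes.

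The activating receptors were found in a large minority of members. Klra4 was detected in 32.3%, 31.9%, 32.9% and 35.3% of them at equal depth, and Klra8 in 47.3%, 42.0%, 47.8% and 40.5%. Of the inhibitory receptors, Klra7 (Ly49G) was detected in 42.9% to 46.6%, Klra9 (Ly49I) in 23.9% to 27.9%, Klra3 (Ly49C) in 19.2% to 21.7% and Klra1 (Ly49A) in 7.13% to 8.41%. Csf1r-high cells stayed at or below 0.518% for each of these 6 genes, so detection in members lay far above background. Ly49 genes are near-identical copies in 1 cluster on chromosome 6, and reads that fit several of them may be split or lost, which makes the level of each uncertain.

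Members usually carried several Ly49 genes at once. Of the 6 genes above, 56.0% to 61.6% of thinned members had 2 or more, and 16.6%, 20.4%, 15.2% and 15.8% had none. If the genes were detected independently of each other, 10.2% to 12.5% would have had none, so cells without a Ly49 UMI were more frequent in every library. Klra4 and Klra8, the activating pair, occurred together 1.22 to 1.32 times as often as their shares predict. Klra1 occurred with Klra4 1.49 to 1.78 times as often, and with Klra9 0.53 to 0.661 times as often. These ratios are descriptions of cells within libraries, whose own depth also varies, and carry no test.

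**Figure D2:**
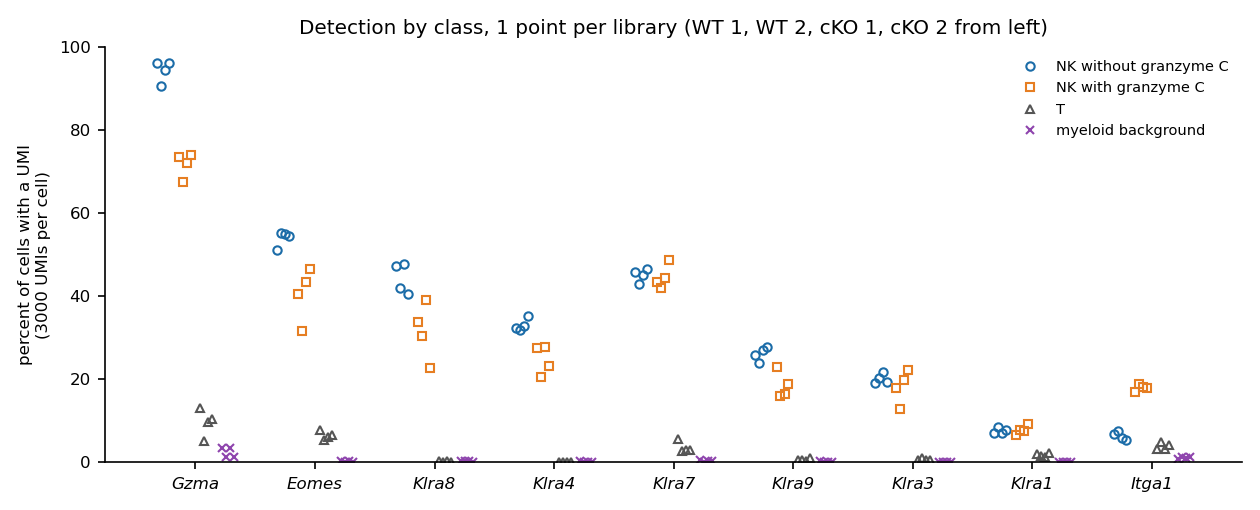
Percent of cells with at least 1 UMI of each gene after thinning to 3000 UMIs, with 1 point per library in each class. Members are the highest class for Gzma, at 90.7% to 96.3%, while Itga1 is higher in NK cells with granzyme C, at 16.9% to 18.9%.

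The first comparison set members against 3138 T cells (at least 2 UMIs of Cd3e and Cd3d together, no Ncr1, Klrb1c, Gzmc, Csf1r or Cd79a UMI), as sums per library with the library as a block. Both classes were drawn on UMIs of these cells, and the gate genes were left out of the fit. Of 9983 genes, edgeR called 41.2% at an adjusted p under 0.05, 19.8% higher and 21.5% lower in members. Since the rule made this contrast, counts and fold changes in it are descriptions. Libraries of the classes were apart for 33.8% of genes. Levels are normalised CPM (counts scaled to a common library total), and the error after ± of a log2 fold change is its standard error (SE).

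Ly49 receptors and the killing machinery set members apart from T cells. Of 11 Ly49 genes 8 passed the filter on low counts, and 7 were called higher and 0 lower, with a median log2 fold change of 4.79 against 0.0002 over all genes. Klra8 stood at 389, 350, 396 and 300 CPM in members and at 1.44, 0.356, 1.67 and 0.129 CPM in T cells (8.98 ± 0.20). Klra4 stood at 352, 288, 310 and 337 CPM against 0.722, 1.07, 0.954 and 0.388 CPM (8.61 ± 0.15). For both genes the classes are far apart and the members of all libraries alike. The inhibitory Klra9 (5.45 ± 0.17), Klra3 (5.12 ± 0.12), Klra7 (4.46 ± 0.16) and Klra1 (2.53 ± 0.21) followed.

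Gzma stood at 8977, 9146, 8598 and 10688 CPM in members and 117, 94.9, 136 and 235 CPM in T cells (6.07 ± 0.15). Perforin (Prf1) was at 427, 404, 403 and 560 CPM against 14.4, 51.7, 31.7 and 39.2 CPM (3.69 ± 0.19). Among 17 tested killing genes, 10 were called higher and 3 lower. Cma1, a chymase gene, was at 64.5, 49.1, 58.6 and 143 CPM against 0.129 CPM at most (9.51 ± 0.23), and Serpinb9b, a serine protease inhibitor gene, was 7.45 ± 0.18 higher. cKO replicate 2 was the highest library for both Cma1 and Serpinb9b.

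Receptor adaptor genes were higher in members, and transcription factor genes went both ways. The adaptor genes Tyrobp and Fcer1g were 4.63 ± 0.07 and 4.02 ± 0.09 higher on the log2 scale. Of 22 tested NK receptor and adaptor genes, 19 were called higher, among them Klrc2 (NKG2C, activating) at 3.99 ± 0.08. Of 18 NK transcription factor genes, 10 were called higher and 7 lower. Eomes stood at 317, 297, 337 and 301 CPM against 38.6, 27.2, 24.6 and 33.1 CPM (3.36 ± 0.11). Irf8, an interferon regulatory factor gene, was at 1306, 1241, 1356 and 1829 CPM against 65.4 to 187 CPM (3.48 ± 0.18). Tbx21, the other T-box factor of these lineages, was 1.48 ± 0.11 higher, and Ikzf2 (Helios) was lower (-2.83 ± 0.09).

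Maturation and trafficking genes were more often higher than lower, and residency genes mostly lower. Of 18 tested genes of the first list, 11 were called higher and 5 lower, with a median of 0.69. Integrin alpha M (Itgam, 3.45 ± 0.20), integrin alpha 2 (Itga2, 3.59 ± 0.16) and the egress receptor S1pr5 (4.17 ± 0.26) were higher in members. Of 19 tested genes of type 1 innate lymphoid and residency programmes, 15 were called lower and 2 higher, with a median of -2.46. Integrin alpha E (Itgae) was at 0.904, 0.63, 1.65 and 1.25 CPM against 55.4 to 66.3 CPM (-5.60 ± 0.19), and the interleukin 7 receptor gene Il7r at 10.5, 6.3, 7.53 and 17.4 CPM against 163 to 258 CPM (-4.37 ± 0.17). The chemokine receptor gene Cxcr6, a member of both lists, was at -5.42 ± 0.16.

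Checkpoint receptors split. Pdcd1 (PD-1), the receptor named in the series title, had 0, 1.26, 1.88 and 0.83 CPM in members against 193 to 456 CPM in T cells (-8.09 ± 0.20). Ctla4 (-5.24 ± 0.13), Havcr2 (-4.38 ± 0.19) and Lag3 (-2.64 ± 0.15) were also lower, while Klrc1 (NKG2A, inhibitory) was 1.24 ± 0.13 higher. Over the list, 6 of 12 genes were called lower and 3 higher.

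Interferon response genes were mostly lower in members than in T cells. Of 35 tested type I genes, 25 were called lower and 4 higher, with a median of -0.68. Ifi27l2a was at 49.1, 84.4, 80.0 and 127 CPM against 1280 to 2352 CPM (-4.57 ± 0.11), and Ifit3, whose promoter is shown above, at 19.9, 63.6, 36 and 60.2 CPM against 117 to 201 CPM (-1.81 ± 0.14). Oasl1, an oligoadenylate synthetase-like gene, was higher in members in each library (35.9, 72.4, 54.8 and 96.7 against 18.8, 28.2, 23.1 and 41.9 CPM, 1.21 ± 0.09), although the ranges overlap. Markers of dendritic cells, B cells and macrophages were lower in members as well. Red cell, tumour and stroma markers went both ways, with 2 of 3 tested genes called higher and 1 lower (median 2.32). Their sums were 15.2, 6.95, 327 and 334 CPM in members against 16.1, 29.5, 150 and 10.6 CPM in T cells. All 5 tested dendritic cell markers were called lower (median -2.48), with sums of 145 to 732 CPM against 1437 to 3326 CPM in T cells, as were 3 of 3 B cell markers and 4 of 7 macrophage markers. Their part in the interferon difference was not tested. Proliferation genes (24 of 25 called lower, median -1.12) and glycolysis genes (18 of 21 called lower, median -0.57) were also lower, with Hif1a at -1.84 ± 0.08. Of 15 tested cytokine and chemokine genes, 6 were called higher and 7 lower. The chemokine genes Ccl5 (2.18 ± 0.12) and Xcl1 (2.09 ± 0.09) were higher, and the growth factor gene Areg was at -4.20 ± 0.17. Il17a, at 101 to 251 CPM in the T cells and at most 1.26 CPM in members, shows that the T gate holds cells that make interleukin 17. With CD8 T cells alone, 3239 genes were called.

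**Figure D3:**
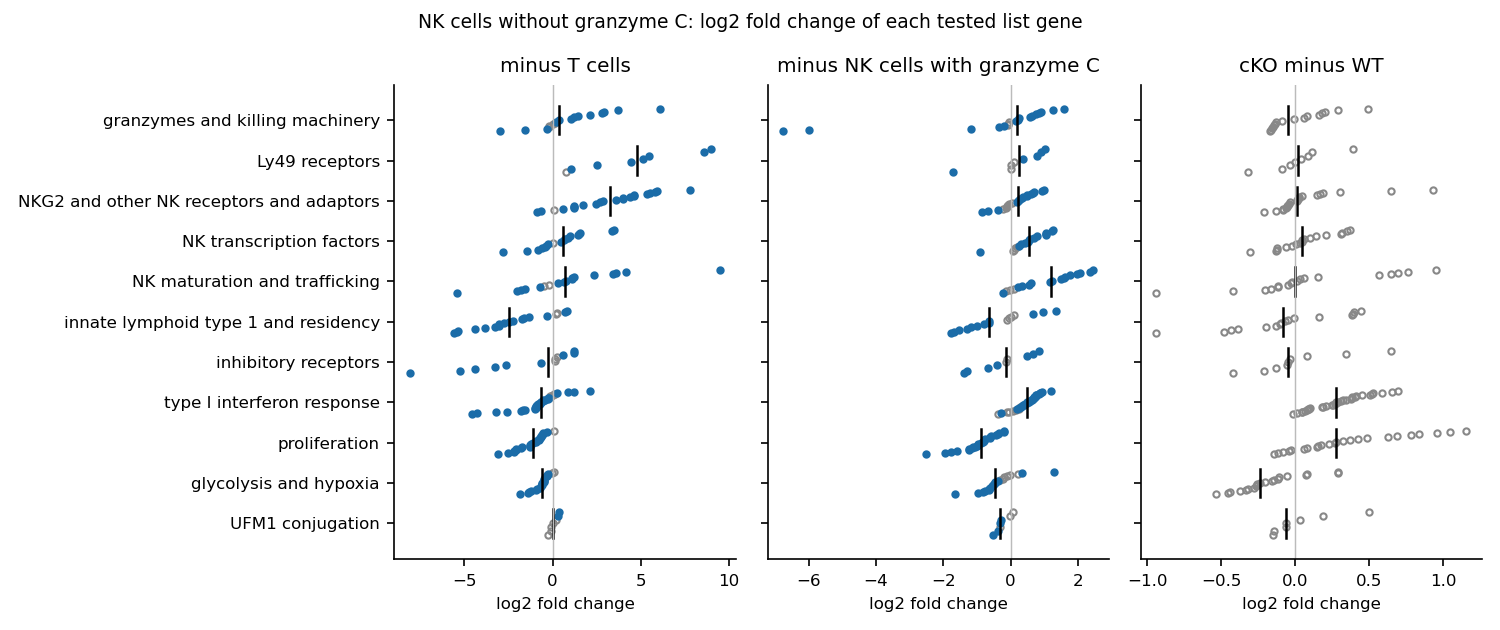
Log2 fold change (x axis) of each tested gene of 11 lists, members minus T cells, members minus NK cells with granzyme C, and cKO minus WT in members. Filled points passed the adjusted threshold and black lines are list medians. In the right panel no list gene shown passed, and the type I interferon median is 0.28.

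The second comparison set members against 1581 NK cells that met the same gate but held at least 1 Gzmc UMI. The latter were deeper, with medians of 7948, 12908.5, 11127 and 11299 UMIs per cell, and their background-level Gzmc cells blur the split. Of 9463 genes, edgeR called 43.3%, with 21.5% higher and 21.7% lower in members. After thinning to 3000 UMIs it called 905 higher and 860 lower. Of the 3655 called genes still tested, 3551 had the same direction, and 1632 were called again in that direction. Cells kept the class set on all their UMIs, so thinning cannot undo the selection of deeper cells by a Gzmc UMI. The rule made this contrast too, so its values are descriptions.

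Gzma and some Ly49 genes made up a larger share of UMIs in members than in NK cells with granzyme C. CPM are shares of the UMIs of a class, and the cells with granzyme C were deeper. These values therefore do not give transcripts per cell. Gzma was at 8698, 8939, 8311 and 10472 CPM against 3664, 3556, 3440 and 4481 CPM (1.27 ± 0.04). Klra4 was at 341, 282, 299 and 330 CPM against 167, 133, 178 and 137 CPM (1.01 ± 0.07), and Klra8 (0.91 ± 0.07) and Klra9 (0.79 ± 0.07) were similar. Klra7 was not called (0.10 ± 0.05), and Klra5 (Ly49E) was lower, at 18.7, 7.39, 7.28 and 26.0 CPM against 33.1 to 73.6 CPM (-1.72 ± 0.19). Over 8 tested Ly49 genes 4 were called higher and 1 lower, so the family did not move as a block.

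The granzymes encoded beside Gzmc were lower in members along with it. Gzmf stood at 0.584, 4.92, 0.227 and 2.03 CPM against 59.3, 16.9, 23.6 and 621 CPM (-6.76 ± 0.36), and Gzme was at -6.00 ± 0.31. Granzyme genes are close copies, so part of this may be shared reads, which was not tested. Chemokine genes Ccl5 (9380, 9293, 10638 and 14104 against 2249, 905, 2327 and 2099 CPM, 2.58 ± 0.14) and Ccl4 (1.19 ± 0.06) were higher, while Xcl1 was at -1.22 ± 0.06.

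Maturation and trafficking genes were higher as a group, with 14 of 18 called higher, 1 lower and a median of 1.21 against -0.00003 over all genes. The chemokine receptor gene Cxcr4 stood at 256, 222, 212 and 205 CPM against 106, 83.6, 69.6 and 62.1 CPM (1.48 ± 0.07). S1pr1, the receptor for egress into blood and lymph (2.35 ± 0.18), Itgam (2.07 ± 0.18), Itga2 (1.58 ± 0.10) and Cma1 (2.46 ± 0.22) were higher. Most genes of the separate NK transcription factor list also lay higher, with 13 of 18 called higher and 1 lower. Those called higher included Klf2 (1.25 ± 0.06), Zeb2 (1.22 ± 0.12), Lef1 (1.06 ± 0.10) and Eomes (0.78 ± 0.06). Few single cells carried Itgam. Of thinned members, 5.94%, 5.75%, 7.68% and 9.20% had Itgam without Cd27, another gene of the maturation list. Cd27 without Itgam was found in 15.6%, 14.2%, 15.5% and 11.8%, and neither gene in 75.6% to 79.6%. The maturation stage of single members was not tested.

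Tissue residency genes were lower. Integrin alpha 1 (Itga1, CD49a) was at 23.6, 26.5, 26.8 and 18.3 CPM against 74.7, 74.1, 66.9 and 64.0 CPM (-1.54 ± 0.10), and was detected in 5.46% to 7.52% of thinned members against 16.9% to 18.9%. The phosphatase gene Inpp4b (-1.77 ± 0.11), the death ligand gene Tnfsf10 (TRAIL, -1.16 ± 0.10) and Zfp683 (Hobit, -1.67 ± 0.21) were lower as well, and 9 of 16 tested genes of the list were called lower and 3 higher. Il2ra (-1.74 ± 0.19) and Lag3 (-1.39 ± 0.12) followed, while the cytokine receptor genes Il12rb2 (1.27 ± 0.08) and Ifngr1 (1.01 ± 0.05) were higher.

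Cell cycle and metabolic genes were lower in members. Of 25 proliferation genes 25 were called lower (median -0.88), with Ccnb2 at 6.71, 1.23, 9.55 and 8.95 CPM against 34.8 to 48.3 CPM (-2.51 ± 0.20). Of 21 glycolysis genes 13 were called lower and 2 higher, among them Pgk1 (-0.98 ± 0.06), and Hilpda, a lipid droplet gene induced by hypoxia, was at -1.58 ± 0.05. The metallothionein gene Mt1 was at -2.17 ± 0.09. Of 7 tested UFM1 conjugation genes 4 were called lower, among them Ufc1, which encodes the UFM1-conjugating enzyme (-0.31 ± 0.07). After thinning, Ufc1 was no longer called (-0.07).

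Type I interferon response genes were called higher in 25 of 33 cases and lower in 1, with a median of 0.50. The libraries of the classes were apart for 1 of them, against 27.5% of all genes. Irf7, a master regulator of the response, was at 171, 273, 241 and 314 CPM against 111, 149, 148 and 194 CPM (0.72 ± 0.06), higher in 4 of 4 libraries although the ranges overlap. Counted per cell at equal depth, the summed response averaged 6.31, 10.7, 8.85 and 13.6 UMIs in members and 6.44, 7.95, 8.15 and 10.6 UMIs in NK cells with granzyme C, so WT replicate 1 did not show the difference. The medians per cell were 4, 5, 5 and 6.5 UMIs in members and 3.5, 5, 4 and 7 UMIs in NK cells with granzyme C. Macrophage markers moved the same way. All 6 tested were called higher in members, with Lyz2 at 1.78 ± 0.19, and the 10 listed markers summed to 202 to 399 CPM against 122 to 178 CPM. The part of such RNA in other differences was not tested.

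The third comparison split the members themselves, each thinned to 3000 UMIs, into 1391 cells with a UMI of the 6 Ly49 genes and 274 cells with none. Ly49 genes were left out of the fit, and some cells without a UMI express the genes below detection. Of 4836 genes, edgeR called 35 higher (0.724%) and 66 lower (1.36%) in Ly49-bearing cells. DESeq2 called 5 higher and 25 lower. For 4.82% of genes the libraries of the classes were apart.

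Of 15 tested killing genes, 4 were called higher in Ly49-bearing cells and 11 were not called, with a median of 0.14. Gzma stood at 10249, 10222, 10090 and 12272 CPM against 5726, 6546, 6700 and 8689 CPM (0.64 ± 0.06, edgeR adjusted p = 1.1e-13), with no overlap. Prf1 was at 456, 478, 518 and 637 CPM against 199, 216, 290 and 402 CPM (0.93 ± 0.11). Gzmb was higher in 4 of 4 libraries (0.71 ± 0.08), although the ranges overlap. Klrc2 (1.06 ± 0.17), Serpinb9b (1.46 ± 0.23), Eomes (0.58 ± 0.12) and Tyrobp (0.38 ± 0.07) were higher too. In DESeq2, Gzmb, Klrc2 and Eomes did not pass, with the same direction.

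Cells without a Ly49 UMI had more Klrc1, at 666, 779, 580 and 793 CPM against 289, 272, 309 and 283 CPM (-1.24 ± 0.10, edgeR adjusted p = 2.4e-17 as bearing minus lacking). Of 10 tested residency genes 5 were called lower in Ly49-bearing cells and 0 higher. The membrane protein gene Tmem176b stood at 93.4, 116, 167 and 82.9 CPM in cells without a Ly49 UMI against 10.2, 9.64, 8.55 and 7.76 CPM (-3.68 ± 0.29). Il7r stood at 38.9, 30.8, 44.6 and 118 CPM against 4.72, 1.93, 3.29 and 12.2 CPM (-3.34 ± 0.41). Gpr183, an oxysterol receptor gene, was at -2.01 ± 0.31, the lymphotoxin gene Ltb at -1.22 ± 0.18 and Emb at -1.03 ± 0.12. Cd226 was at -1.13 ± 0.24 (-0.68 and not called without cKO replicate 2). In DESeq2, Cd226 stood at -1.19 and did not pass.

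Cytokine and chemokine genes went both ways, with 3 of 7 called lower and 1 higher in Ly49-bearing cells (median 0.03). Bearing minus lacking, Ifng was at -0.70 ± 0.10, Xcl1 at -0.58 ± 0.08 and Ccl5 at 0.29 ± 0.06. In DESeq2, Ccl5 stood at 0.27 and did not pass. Of 21 dissociation and heat shock genes 7 were called lower and 0 higher, among them Hspa1a at -0.71 ± 0.08. Hilpda was at -1.62 ± 0.16. Of 29 tested type I interferon genes 0 were called, near the 2.09% of all genes. Of these 29 genes 25 were negative, with a median of -0.22 against -0.0079 over all genes, and the libraries of the classes were apart for 0. Among markers of other cell types, Lyz2 was higher in the lacking cells of WT replicates 1 and 2 (226 and 224 against 84.2 and 61.7 CPM) and cKO replicate 2 (65.1 against 53.2 CPM), and lower in those of cKO replicate 1 (22.3 against 46.0 CPM). With the highest doublet scores removed, its log2 fold change was -0.29 and not called, and in DESeq2 it was -0.73 and not called. T cell marker genes Trbc2 and Lat did not pass.

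The Il7r and Tmem176b signal came from few cells. Over all UMIs, 57 members had an Il7r UMI and 100 a Tmem176b UMI, and 24 had both, where independence predicts 2.93. Of the cells with either gene, 50% to 62.5% per library carried a Ly49 UMI, against 87.8%, 87.7%, 91.2% and 90.2% of the other members. Eomes was detected in 45.0%, 44.0%, 56.8% and 41.7% of them, against 69.0%, 79.8%, 75.0% and 72.1% of the others. Il1rl1, a marker of type 2 innate lymphoid cells, was detected in 2.17% of the lacking cells of WT replicate 2 and in no others.

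**Figure D4:**
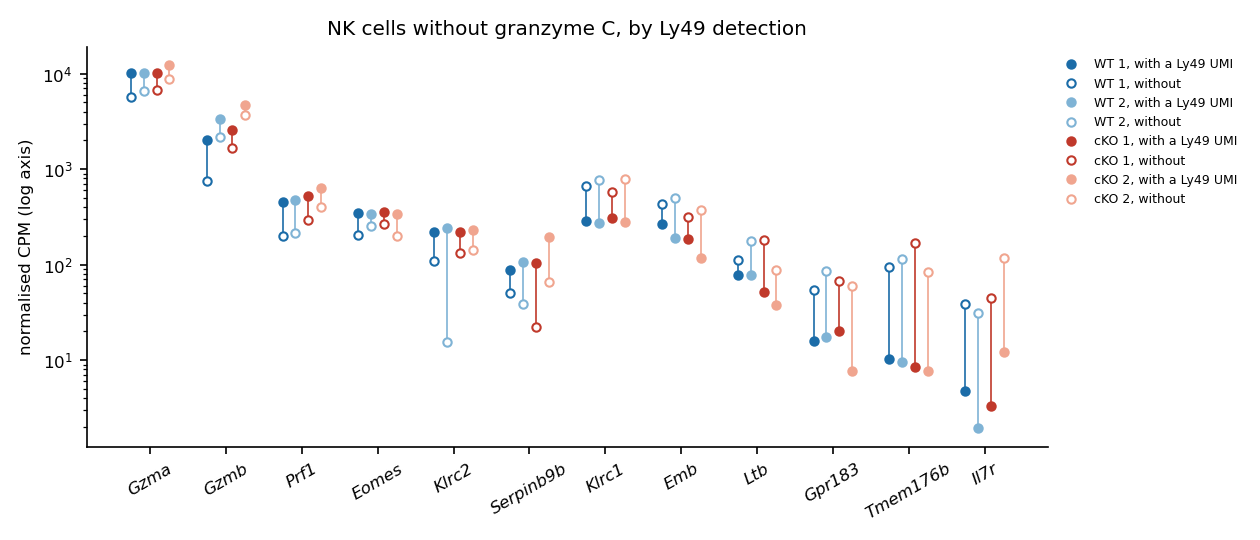
Normalised CPM (log axis) of 12 genes in members with a Ly49 UMI (filled) and without (open), joined within each library. Gzma and Prf1 are higher with Ly49 in each library, and Klrc1, Tmem176b and Il7r are higher without.

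The fourth comparison set cKO against WT in members. Ufl1 first: its raw level in members was 18.2 (95% Poisson interval 13.9 to 23.3), 15.6 (10.3 to 22.8), 16.0 (12.4 to 20.2) and 21.2 CPM (15.8 to 27.9), with 61, 27, 69 and 51 UMIs, so the groups overlap. Intervals cover counting error only. A count over the whole gene may miss a deletion of some exons, and the ablation is placed in T cells, so this checks nothing. Of 9301 genes, edgeR called 2, or 0.0215%, and 337 had an unadjusted p under 0.05. DESeq2 called 5. The groups did not overlap for 31.9% of all genes tested.

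Both called genes encode beta globins, and they came from single cells. Hbb-bs stood at 4.97, 1.24, 302 and 264 CPM (6.24 ± 0.29, edgeR adjusted p = 1.4e-06), and Hbb-bt at 0, 0, 62.1 and 48.4 CPM. However, 1 cell held 1321 of 1323 Hbb-bs UMIs in cKO replicate 1 and 1 cell held 653 of 656 in cKO replicate 2. For Hbb-bt the same count was 271 of 272 and 119 of 120. With the cells of highest doublet score removed, 0 genes were called.

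Fscn1 and Lyz2, the next genes by p, also rested partly on single cells. For the heat shock gene Hspa1a, which followed them, the top cell held 3.19%, 8.42%, 3.22% and 6.53% of UMIs. Fscn1, the gene of an actin-bundling protein typical of mature dendritic cells, was at 1.17, 2.47, 11.4 and 19.7 CPM (3.19 ± 0.50, edgeR adjusted p = 0.1). Of its UMIs, 38 of 50 and 48 of 49 were in 1 cell of cKO replicates 1 and 2. Lyz2, a macrophage gene, was at 98.2, 150, 39.5 and 52.4 CPM (-1.43 ± 0.22), and 99 of 336 and 133 of 243 of its UMIs were in 1 cell of WT replicates 1 and 2. The macrophage markers lay lower in cKO for 6 of 6 tested genes (median -0.70, 0 called), with summed levels of 294 and 399 CPM in WT against 202 and 222 CPM in cKO.

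The defining genes of the members showed no called difference between genotypes. Gzma was at 8706, 8979, 8346 and 10374 CPM (0.08 ± 0.17), Klra8 at 377, 344, 384 and 291 CPM (-0.09 ± 0.16) and Klra4 at 341, 283, 301 and 327 CPM (0.00 ± 0.15). Eomes (0.05 ± 0.14) was alike. The marker Klrb1c is a gate gene, so its value is not a result. For each of Gzma, Klra8, Klra4 and Eomes the groups overlap, which does not show that they were equal. Their small differences changed sign when a single library was left out. Prf1 (0.20 ± 0.17) and Gzmb (1805, 2971, 1984 and 3844 CPM, 0.29 ± 0.29) also overlapped between groups, and Gzmb stood at -0.27 without cKO replicate 2.

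Some lists leaned in a single direction without a called gene. Of 33 tested type I interferon genes 32 were positive, with a median of 0.28 against -0.0035 over all genes, while the groups were apart in 2 of them, against 31.9% of all genes. Usp18, which limits interferon signalling, was at 53.5, 122, 97.5 and 179 CPM (0.70 ± 0.34), and Ifi27l2a at 47.6, 82.8, 77.6 and 123 CPM (0.65 ± 0.27). WT replicate 1 is lowest and cKO replicate 2 highest for both, with WT replicate 2 above cKO replicate 1. Per thinned cell the summed response was 6.31 and 10.7 UMIs in WT and 8.85 and 13.6 UMIs in cKO members, and in T cells it was 17 and 24.2 UMIs in WT and 21.5 and 27.6 UMIs in cKO. The libraries thus lie in the same order in both classes, and the groups overlap in both.

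**Figure D5:**
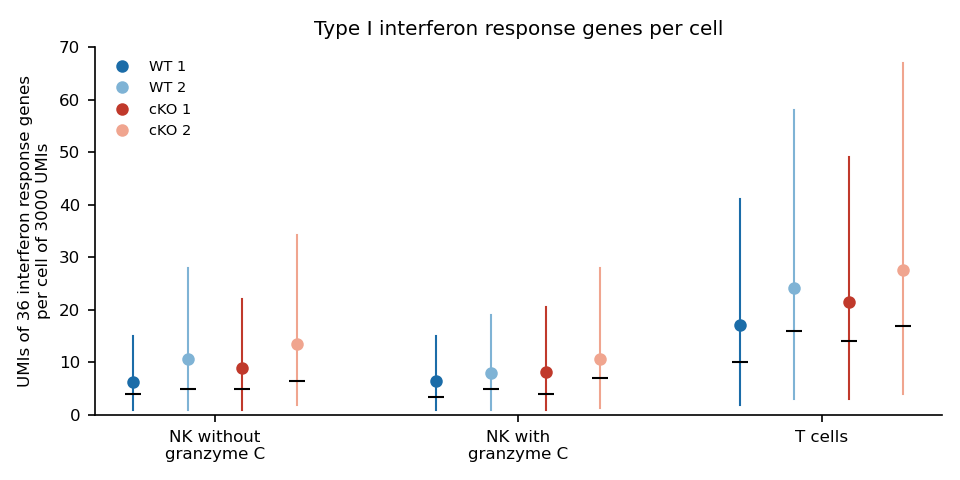
UMIs of 36 type I interferon response genes per cell thinned to 3000 UMIs, with points for means, black dashes for medians and lines from the 10th to the 90th percentile of cells. WT replicate 1 is lowest and cKO replicate 2 highest in members, at 6.31 and 13.6 UMIs.

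Proliferation genes were positive in 19 of 24 cases (median 0.27), with the groups apart in 8, a share near the 31.9% of all genes. Mki67 was at 18.7, 31.5, 41.8 and 43.5 CPM (0.84 ± 0.23), and the share of thinned members with a UMI of Mki67 or Top2a was 4.75%, 9.29%, 9.04% and 11.5%. The groups overlapped in that share. Glycolysis genes were negative in 17 of 21 cases (median -0.24), with Slc2a3, a glucose transporter gene, at 23.4, 20.4, 14.2 and 16.9 CPM (-0.53 ± 0.23). S1pr5 was at 21.0, 16.1, 32.2 and 43.1 CPM (0.95 ± 0.23) and Hspa1a at 750, 801, 1310 and 1246 CPM (0.72 ± 0.14), each with groups apart and an adjusted p of 0.94 and 0.57 in edgeR. UFM1 conjugation genes had a median of -0.06. None of these genes was called in edgeR. DESeq2 called Hspa1a (0.72), Fscn1 (3.21) and Lyz2 (-1.44) beside the globin genes. With a library left out, which leaves that genotype 1 library whose spread is taken from the other, edgeR called more genes: 57 when WT replicate 1 was dropped and 79 for WT replicate 2. The same count was 17 for cKO replicate 1 and 21 for cKO replicate 2.

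The last comparison asked whether the genotype difference in members differed from that in T cells. edgeR called 0 of 10513 genes (0.0%), with 370 at an unadjusted p under 0.05, and DESeq2 called 3, Gzmb, Ly6c2 and Hbb-bt. In edgeR, Gzmb had the smallest p, with 1862, 3060, 2044 and 3973 CPM in members and 519, 955, 357 and 665 CPM in T cells (difference of log2 fold changes 0.79 ± 0.10, adjusted p = 0.067). Ly6c2, a surface antigen gene, was at 236, 290, 293 and 488 CPM in members and 1279, 1621, 930 and 1278 CPM in T cells (0.93 ± 0.13, adjusted p = 0.067). Gzma was at -0.71 ± 0.15. Its level in T cells, 94.8 to 234 CPM, is low enough that free RNA from NK cells could make up part of it, which was not tested.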

How the data were processed

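The authors deposited 1 matrix of raw UMI counts per gene and cell for each of 4 libraries. Per the submitters' processing notes CASAVA 1.8, Cell Ranger and Seurat were used, and the file headers name Cell Ranger 6.1.1. The build is not given in the sources used here. Of 31253 features, 31107 are in GENCODE M21, whose GRCm38 coordinates are printed. Cells were gated on raw counts. Scrublet's own threshold called 0 doublets and was judged not to have worked, so doublets were kept, and an alternative removed the highest scores (0.8% per 1000 cells, 2117 cells, 13 of them members). Counts were summed per library and class, which treats libraries and not cells as replicates. Sums were tested with edgeR's quasi-likelihood test (TMM factors, filterByExpr, Benjamini-Hochberg threshold 0.05), with the library as a block between classes, and with DESeq2 as an alternative. TMM factors are set within each fit, so the CPM of a gene differ slightly between comparisons. On simulated counts for cKO against WT (9140 genes), 51.0% of genes changed 2-fold and 95.9% of those changed 4-fold were recovered. False calls were 3 of 145 calls there, 21 of 206 against T cells and 12 of 201 against NK cells with granzyme C. They were 4 of 171 for the Ly49 split and 14 of 151 for the difference from T cells. Libraries held 64141857 to 79747752 UMIs. Thinning drew 3000 UMIs per cell and left out 227 members, 81 NK cells with granzyme C and 391 T cells below that number. The replicate numbers were not taken to pair samples.

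Named genes were the 5 markers, up to 6 genes of smallest p in each list, the 12 largest differences in each direction between classes (called, at least 50 CPM, libraries apart), and the 5 smallest p in each direction for genotype and its difference from T cells. V, D and J segments, mitochondrial and ribosomal protein genes and predicted genes were not named. Gzmb against T cells was added after its value was seen. The members and the 22 gene lists were chosen with earlier results of these data known. Alternatives changed the test, the scaling, the filters, the gates, the doublets and the libraries. Those that left out shared barcodes or counted up to 2 Gzmc UMIs as without were chosen after seeing the data. Versions were Python 3.11.15, scanpy 1.11.5, R 4.3.3, edgeR 4.0.16 and DESeq2 1.42.0.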

Additional observations from a re-analysis of the deposited data

How the results depend on the processing

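The cKO against WT count of 2 genes became 5 in DESeq2, 40 with no filter on low counts, 0 with the highest doublet scores removed, 4 with up to 2 Gzmc UMIs counted as without, and 17 to 79 with a library left out. With the replicate number as a block it was 8, among them Fscn1 (3.11), Hba-a2 (3.37), Lyz2 (-1.41) and Il1b (-1.19). Same-numbered libraries correlated at 0.116 in their deviations, but with 2 libraries a group both pairs give the same value, so this cannot show whether they are paired, and the labels give no pairing. The count against NK cells with granzyme C fell from 4093 to 2238 in DESeq2 and 1765 after thinning. The Ly49 count of 101 became 30 in DESeq2 and 61 to 72 with a library left out. The difference from T cells went from 0 to 3 in DESeq2, 51 with no filter, 1 without shared barcodes and 12 to 30 with a library left out. The cause was not tested. The cKO minus WT share of filtered cells ranged from -1.73 to 3.88 percentage points with a library left out, reversing without WT replicate 2 (-1.73) or cKO replicate 1 (-0.507).

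For cKO minus WT, Klra4 turned to -0.000286 in DESeq2 and -0.000671 with RLE factors, and Klra8 to 0.0311 with up to 2 Gzmc UMIs counted as without. With a library left out, log2 fold changes ran from -0.12 to 0.15 (Klra4), -0.30 to 0.091 (Klra8), -0.27 to 0.70 (Gzmb), -0.029 to 0.13 (Eomes), -0.085 to 0.24 (Gzma), -0.0077 to 0.11 (Klrb1c) and -0.052 to 0.43 (Prf1). The genes named against T cells kept direction and call in the 727 values recomputed. On simulated counts of the genotype design, 51.0% of 2-fold and 95.9% of 4-fold changes were recovered, so 2-fold changes can be missed.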
